A study of Homo sapiens with 4 samples.

Results

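The 35 genes described here encode subunits of glutamate and GABA receptors: 23 glutamate receptor genes and 12 GABA-A receptor genes, among 20098 protein-coding genes of the autosomes and X chromosome. They were chosen by name and receptor family, by a rule that uses no measured value, although earlier results of these data were known when the set was chosen. Each was given a window made of its gene body and 10 kb on either side (hg19 coordinates, GENCODE release 44 mapped to that build), and an interval belonged to a gene when it overlapped the window by 1 bp or more. By this rule 152 of 58827 listed intervals lay at the receptor genes.

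The intervals come from CUT&RUN, in which a nuclease tethered by an antibody releases the DNA around a bound protein. The antibody was directed at a V5 tag on full-length SOX2 or on its DNA-binding domain alone (SOX2-DBD), each expressed ectopically for 48 hours in BJ cells, a human foreskin fibroblast line, with 2 samples in each of the 2 groups. The lists analysed were attached to replicate 1 of each group, and the samples without a list were not analysed here. Both groups carry an introduced, tagged protein. The labels used here do not give the vector, the level of expression or the limits of the DNA-binding domain, and no sample without a tagged protein was analysed, so no measured background stands beside the counts. Because there was 1 list per group, no difference below has a replicate check. The 95% intervals are Wilson intervals for shares and exact Poisson intervals for densities, and they cover counting error over intervals only. Sequencing depth is unknown, and no expression was measured, so neither the line nor the activity of any receptor gene could be checked.

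Glutamate is the main excitatory transmitter of the brain and GABA the main inhibitory one. AMPA, kainate and NMDA receptors are tetrameric cation channels opened by glutamate, delta subunits are related proteins that organise synapses, and metabotropic glutamate receptors (GRM genes) signal through G proteins. GABA-A receptors are pentameric chloride channels built from alpha, beta, gamma, delta, pi or rho subunits. These receptors are best known from neurons. SOX2 is a transcription factor of pluripotent and neural progenitor cells that binds DNA through its HMG domain and can engage sites in closed chromatin.

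Full-length SOX2 was listed at few of these genes, and most of its intervals lay at GRIK2, which encodes a kainate receptor subunit. Of the 35 receptor genes, 11 (31.4%) had at least 1 SOX2 interval and 24 had none, beside 47.8% of all protein-coding genes with an interval. SOX2-DBD was listed at 10 genes (28.6%), beside 24.0% of all protein-coding genes, and these were the 11 genes of the SOX2 list without GABRR1. The 152 intervals divided into 106 listed for SOX2 only, 45 listed at the same position for both proteins (shared) and 1 listed for SOX2-DBD only. That last interval lay in GRIK2, and 2.49% of all protein-coding genes had an interval of this class.

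**Figure D1:**
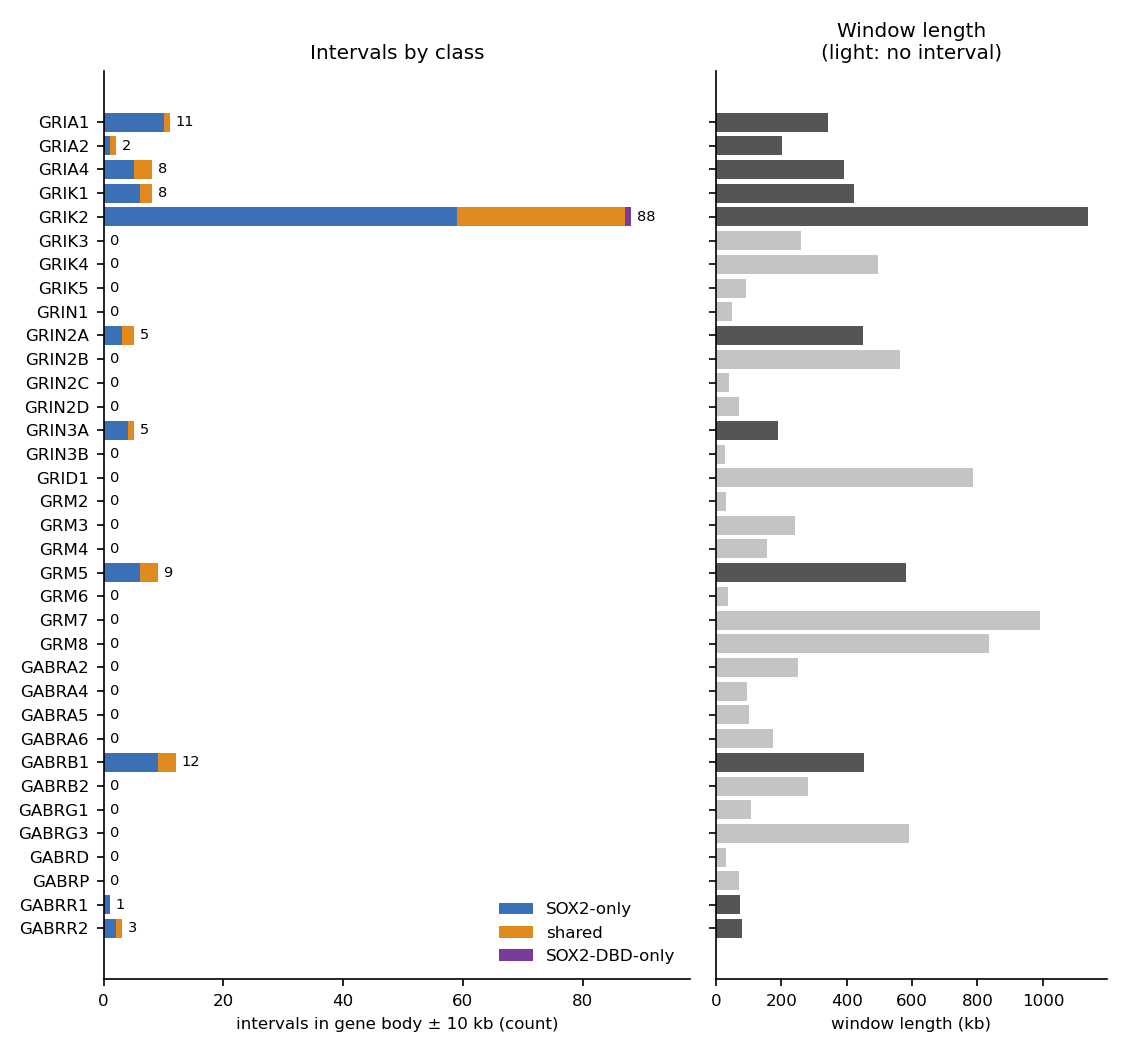
Intervals by class in the gene body ± 10 kb of each of the 35 receptor genes (left, count; bars stacked as SOX2-only, shared and SOX2-DBD-only, with the total printed) and length of that window (right, kb; light bars are genes without an interval). GRIK2 holds 88 of the 152 intervals, and 24 genes hold 0, among them GRM7 with a window of 992 kb.

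The receptor genes are long, so a count has to be read beside the length searched. Their windows had a median length of 203 kb, against 47.3 kb over all protein-coding genes. Pooled over the windows, the receptor genes held 1.41 SOX2 intervals per 100 kb (95% interval 1.20 to 1.66) and all protein-coding genes 2.59. For SOX2-DBD the densities were 0.431 (0.315 to 0.575) and 0.637 per 100 kb. Without GRIK2 the remaining 34 genes held 0.671 SOX2 intervals per 100 kb (0.517 to 0.857) and 0.178 SOX2-DBD intervals (0.104 to 0.285). The density over the set thus rests on GRIK2, which supplied 57.9% of the intervals from 10.6% of the window length.

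Fewer of the receptor genes were occupied at matched lengths as well. Of the 18 receptor genes with windows of 200 kb or more, 8 (44.4%) had a SOX2 interval, against 84.6% of all such genes. The same 8 had a SOX2-DBD interval, against 68.2% of all. Of the 7 with windows of 500 kb or more, 5 were empty of both lists, where 20.6% of all 355 such genes were empty. Among the 12 receptor genes with windows under 100 kb, 2 had a SOX2 interval, GABRR1 and GABRR2, against 37.6% of all genes of that length. In windows of 200 to 500 kb the receptor genes held 1.21 SOX2 intervals per 100 kb and all genes 3.21. At 500 kb or more the SOX2 densities were 1.75 (1.42 to 2.14) and 1.95, a difference within counting error, and the SOX2-DBD densities were 0.583 (0.399 to 0.823) and 0.499. In that group GRIK2 supplied 87 of the 96 SOX2 intervals of the receptor genes of that length. The pooled SOX2 density of all protein-coding genes was exceeded by 5 of the 35 genes (14.3%: GRIA1, GRIK2, GRIN3A, GABRB1 and GABRR2), and by 31.9% of all protein-coding genes.

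**Figure D2:**
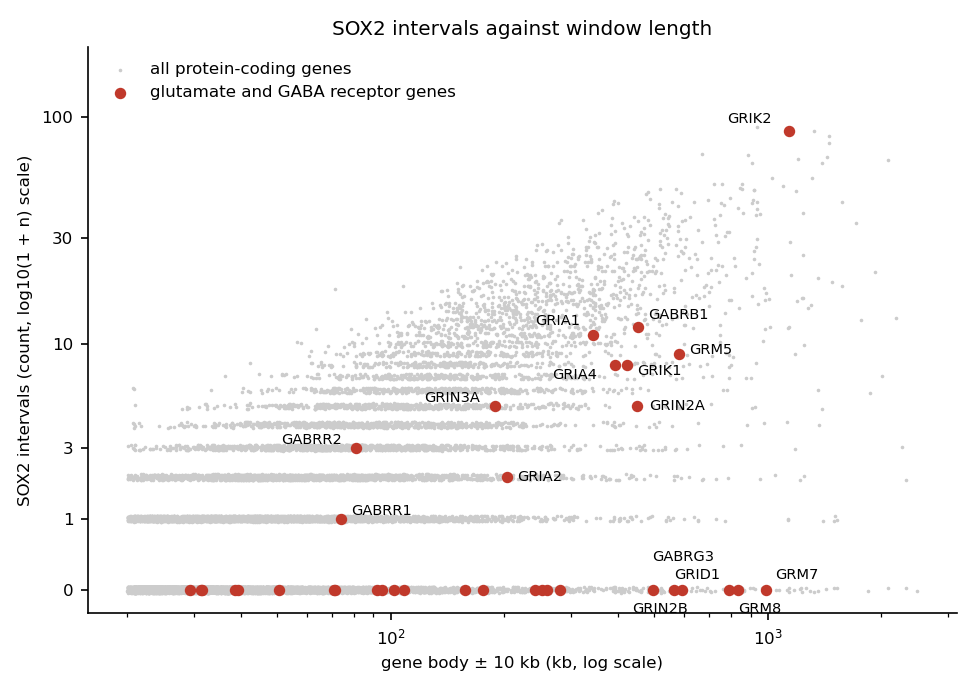
SOX2 intervals per gene (count on a log10(1 + n) scale) against the length of the gene body ± 10 kb (kb, log scale) for 20098 protein-coding genes (grey points, jittered vertically) and the 35 receptor genes (red points). GRIK2 lies near the top of the cloud with 87 SOX2 intervals, the other 10 occupied receptor genes hold 1 to 12, and 24 lie at 0.

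All 3 AMPA receptor genes of the set held intervals. AMPA receptors carry most fast excitatory transmission. Together they had 21 SOX2 intervals in 940 kb, a density of 2.23 per 100 kb (1.38 to 3.42), and 5 SOX2-DBD intervals. GRIA1, on chromosome 5, had 10 SOX2-only intervals and 1 shared interval in a window of 344 kb, or 3.20 SOX2 intervals per 100 kb. Its shared interval, chr5:152930714-152931629 in intron 2, had a total signal of 8339, at percentile 99.1 of the SOX2 list. The total signal is the authors' value for an interval and is used here only to rank intervals within the list. The strongest SOX2-only interval of GRIA1, chr5:152894077-152895462, also lay in intron 2, with a total signal of 6641. GRIA1 thus had intervals of high rank in both classes. The group in which the signal of shared intervals was measured is not given, so the classes may not be on the same scale.

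GRIA4 had 5 SOX2-only and 3 shared intervals in 393 kb (2.04 per 100 kb). All but the interval in intron 4 lay in introns 12 and 14 or beyond the last intron, the strongest SOX2-only interval being chr11:105817880-105819161 in intron 14 with a total signal of 5382. The strongest of the shared intervals was chr11:105729688-105730263 in intron 4, with 2062. GRIA2, whose product makes AMPA receptors poorly permeable to calcium, had 1 SOX2-only and 1 shared interval in 203 kb (0.985 per 100 kb). The SOX2-only interval, chr4:158120463-158120864, lay in the upstream flank with a total signal of 1658, and the shared interval, chr4:158200059-158200145, is a fragment of 87 bp in intron 2 with 2821. The surroundings of GRIA2 and GRIA4 were denser in SOX2 intervals than the genes themselves, at 4.1 and 3.75 per 100 kb within 1 Mb on either side of the windows. This was so for 5 of the 11 occupied receptor genes, GRIK1, GRM5 and GABRR1 being the others. The densities of GRIA2 and GABRR1 themselves rest on 2 and 1 intervals. No share over all occupied protein-coding genes stands beside this count, so it shows no trait of the receptor genes.

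Among the 5 kainate receptor genes, GRIK2 and GRIK1 held intervals, and GRIK3, GRIK4 and GRIK5 held none. Kainate receptors modulate synapses from both the sending and the receiving side. The 5 genes together had 95 SOX2 intervals at 3.94 per 100 kb (3.19 to 4.82), and GRIK2 alone supplied 87 of them. GRIK1, on chromosome 21, had 6 SOX2-only and 2 shared intervals in 423 kb (1.89 per 100 kb). All 8 lay more than 250 kb downstream of the canonical start, in introns 3 to 16. Its strongest shared interval was chr21:30958685-30959423 (intron 12, total signal 4145), and its strongest SOX2-only interval was chr21:30995712-30996809 (intron 7, 3311). GRIK4 was empty over 497 kb and GRIK3 over 259 kb, while GRIK5, a subunit that needs partners such as the GRIK2 product to form a channel, was empty over 91.9 kb.

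GRIK2 spans chr6:101410577-102529497 on the plus strand. Its window of 1139 kb held 59 SOX2-only, 28 shared and 1 SOX2-DBD-only interval. Some shared intervals are very short, such as chr6:101626663-101626666 (4 bp) and chr6:101528449-101528467 (19 bp), and may be parts of longer peaks. With each counted, the window held 7.64 SOX2 intervals per 100 kb (6.12 to 9.42) and 2.55 SOX2-DBD intervals per 100 kb. At the pooled density of all protein-coding genes a window of this length would hold 29.5 SOX2 intervals. GRIK2 ranked 2 of 20098 protein-coding genes by its number of SOX2 intervals and 3 by its number of SOX2-DBD intervals. By density it ranked 1002, and among the 355 genes with windows of 500 kb or more it ranked 9. Its standing was therefore high by count, and it stayed high by density among genes of like length. Their pooled density was 1.95 per 100 kb. The density rank over all genes takes in windows under 50 kb, where densities reached 28.9 per 100 kb.

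The intervals of GRIK2 were spread through the gene and its 5′ side and not gathered at the start. Of the 88 centres, 87 lay in introns, 1 in an exon that is not coding, and 0 in coding exons. The window favours introns by construction, and no share over other genes stands beside these counts. The exonic interval was chr6:102328644-102329333, of the SOX2-only class. Neighbouring centres were a median of 7.04 kb apart, with a widest gap of 89.6 kb. The annotated gene starts 431 kb upstream of its canonical transcript, because of longer transcript models, and 31 of the 88 intervals lay in that upstream part and 57 at or beyond the canonical start. Of the shared intervals, 9 lay upstream and 19 downstream. With the canonical transcript plus 10 kb in place of the gene, GRIK2 held 56 SOX2 intervals in 696 kb (8.04 per 100 kb), a density as high as that of the whole gene.

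Intron 2 of GRIK2, 223 kb long, held 25 intervals, of which 12 were shared (11.2 per 100 kb). Intron 10 held 8 intervals, 4 of them shared, in 40.8 kb (19.6 per 100 kb). Of these, chr6:102278188-102278236 and chr6:102278346-102278914 carry the same signal values but are counted separately. Intron 2 also held such a pair, given below. Intron 14 held 5 intervals in 107 kb, and 0 of these were shared. The counts per intron followed length only in part, and the densities of small introns rest on few intervals. Beyond the window, 65 intervals lay in the 1 Mb on the 5′ side of GRIK2 and 6 in the 1 Mb on the 3′ side. The dense region thus reached beyond the gene on its 5′ side and ended close to its 3′ end.

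**Figure D3:**
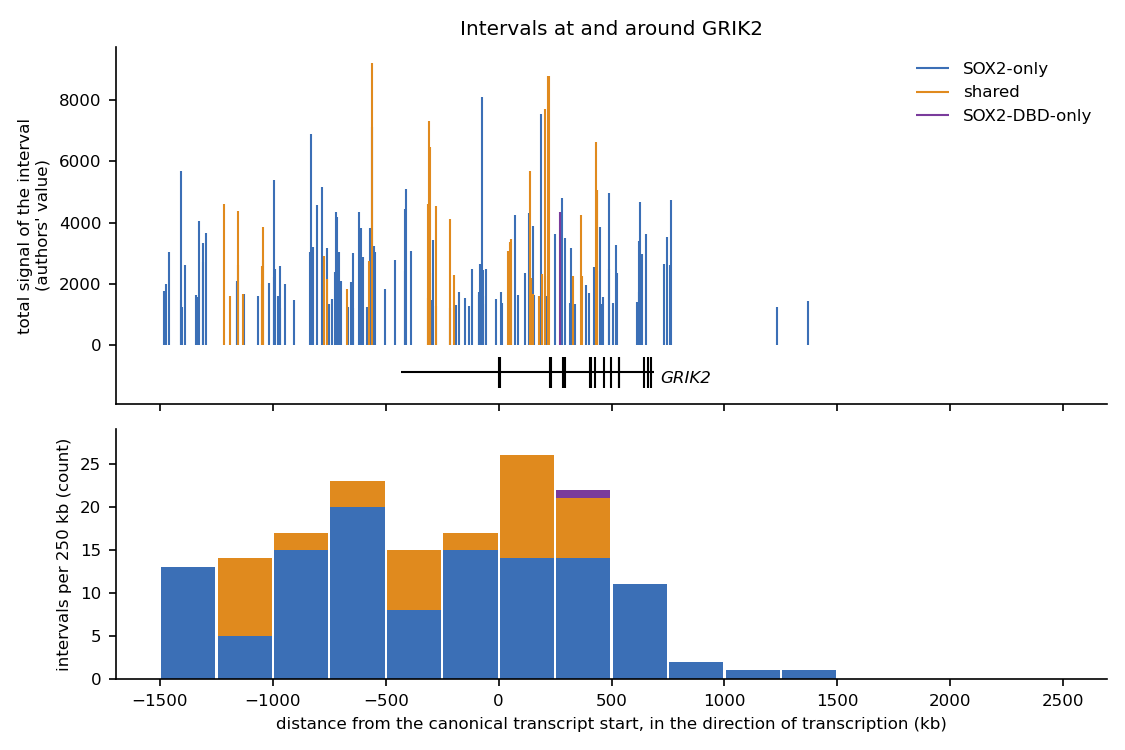
Intervals around GRIK2 by distance from the canonical transcript start in the direction of transcription (kb): total signal of each interval (top; lines coloured by class, with the gene body as a bar and canonical exons as ticks) and intervals per 250 kb (bottom, count, stacked by class). Counts run from 11 to 26 per 250 kb up to 750 kb past the start, and between 1500 and 2500 kb past it there are 0.

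In total signal GRIK2 intervals resembled the rest of the list. Their median was 2428, beside 2375 over all SOX2 intervals, and 13 of the 87 SOX2 intervals lay in the highest 10% of the list. The highest values were 8789 for the shared interval chr6:102062166-102062418 in intron 2 and 8112 for the SOX2-only interval chr6:101765981-101767532, which lies 74.8 kb upstream of the canonical start. The neighbouring shared interval chr6:102062481-102063193 carries the same signal values as the first. With intervals of equal signal, of which there was 1 more pair, counted once, the receptor genes have 149 SOX2 intervals in place of 151.

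Sequence was not used to choose the genes, so the letters under the intervals can be described beside those of the whole list. A SOX core match was taken as ACAAAG or ACAATG on either strand within the 200 bp at the centre of an interval. It was found in 69 of 151 SOX2 intervals at the receptor genes (45.7%, 38.0 to 53.6), against 47.3% of all SOX2 intervals. In windows 10 kb downstream the shares were 27.2% and 27.7%. The longer SOX words AACAATAG and AACAATGG, the second of which contains a core match, were rare, with 2 of 151 intervals (1.32%, 0.364 to 4.70) against 3.62% of the list. In windows 10 kb downstream they were found in 4 of 151 (2.65%) at the receptor genes and in 1.77% over the list. The 95% interval for the receptor genes includes the share of the list, and with 2 and 4 matches no order between intervals and downstream windows can be read there. No shared interval at these genes held a longer word, 0 of 45, with an upper 95% limit of 7.87%. No centre lay within 1 kb of the canonical start of a receptor gene, against 1.77% of all protein-coding genes with such a centre, so no promoter is shown.

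The 2 intervals with a longer SOX word are shown because they are the longest SOX words found at these genes. Both are SOX2-only, the first in intron 12 of GRIK2 (interval chr6:102360872-102361746, total signal 3253) and the second in intron 2 of GRIN2A (interval chr16:10222555-10222839, 1790). All sequences here are plus-strand hg19, 5′ to 3′, and capitals mark the matched letters.
GRIK2 chr6:102361265-102361364: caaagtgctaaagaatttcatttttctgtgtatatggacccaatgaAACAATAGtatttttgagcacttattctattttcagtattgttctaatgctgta
GRIN2A chr16:10222716-10222815: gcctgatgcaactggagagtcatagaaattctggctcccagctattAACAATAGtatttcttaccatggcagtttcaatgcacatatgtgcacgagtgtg
Both carry the same 8 letters, in the same orientation on the plus strand.

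The SOX2-DBD-only interval of GRIK2, chr6:102114005-102115024 in intron 4, had a total signal of 4339. Its central 200 bases are shown because it is the only interval of its class at these genes. They hold no core match, longer SOX word or AP-1 match, so nothing is in capitals.
GRIK2 chr6:102114415-102114614: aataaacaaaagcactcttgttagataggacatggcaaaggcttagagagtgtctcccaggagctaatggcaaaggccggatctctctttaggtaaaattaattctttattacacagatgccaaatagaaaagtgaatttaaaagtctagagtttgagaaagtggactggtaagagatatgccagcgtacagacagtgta

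A match to AP-1, the FOS and JUN family of factors active in fibroblasts, was taken as TGACTCA or TGAGTCA, which are reverse complements of each other. It was found in 12 of 45 shared intervals at the receptor genes (26.7%, 16.0 to 41.0), beside 16.9% of all shared intervals. In SOX2-only intervals it was found in 1 of 106 (0.943%, 0.167 to 5.15), beside 6.59% of all SOX2-only intervals. The 95% interval of the shared class includes the share of the whole list, and that of the SOX2-only class does not. Over both classes together the receptor genes had 8.61% and the list 9.14%, so the share was close to that of the list. The low SOX2-only share rests on 1 match. Its limits treat intervals as independent, although 59 of the 106 SOX2-only intervals lay in GRIK2. Whether the division between the classes differs from that of the list was not tested. Of the 13 matches, 9 lay in GRIK2, 2 in GRIA4, 1 in GRIN2A and 1 in GRIN3A.

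The 2 strongest shared GRIK2 intervals with an AP-1 match were picked after their values were seen, and they show that word under the shared class. Both lie in intron 2, with a total signal of 8789 and 7716.
GRIK2 chr6:102062715-102062814: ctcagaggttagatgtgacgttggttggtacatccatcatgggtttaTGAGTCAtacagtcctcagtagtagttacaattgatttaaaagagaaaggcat
GRIK2 chr6:102045723-102045822: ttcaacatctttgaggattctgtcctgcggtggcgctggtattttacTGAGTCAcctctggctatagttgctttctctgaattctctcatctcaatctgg
Both read TGAGTCA on the plus strand.

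The 2 strongest shared GRIK2 intervals with a SOX core match, again picked after their values were seen, lay upstream of the canonical start (total signal 7314) and in intron 10 (6645).
GRIK2 chr6:101531678-101531777: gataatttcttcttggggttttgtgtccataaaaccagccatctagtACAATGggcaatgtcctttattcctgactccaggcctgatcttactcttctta
GRIK2 chr6:102272604-102272703: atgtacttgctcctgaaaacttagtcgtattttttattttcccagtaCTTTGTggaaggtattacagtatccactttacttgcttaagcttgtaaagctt
The first reads ACAATG and the second CTTTGT, the reverse complement of ACAAAG.

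**Figure D4:**
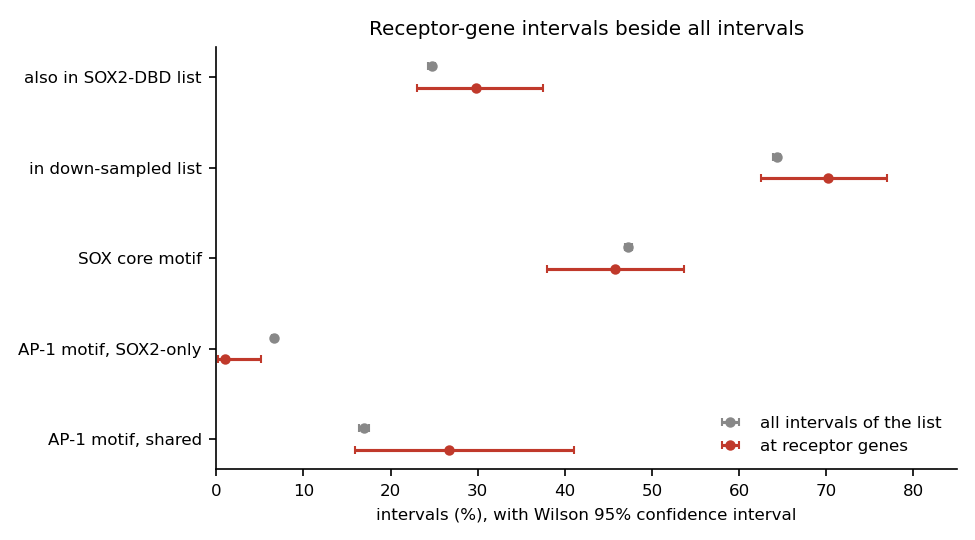
Shares of intervals (%, points with Wilson 95% confidence intervals) at the receptor genes (red) and in the whole list (grey). The red interval holds the grey point in all rows but AP-1 in SOX2-only intervals, where the receptor genes are at 0.943% and the list at 6.59%.

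Of the 7 NMDA receptor genes, GRIN2A and GRIN3A held intervals. NMDA receptors admit calcium and need GRIN1, the obligatory subunit, together with GRIN2 or GRIN3 subunits. The class had 10 SOX2 intervals at 0.718 per 100 kb (0.344 to 1.32). GRIN2A had 3 SOX2-only and 2 shared intervals in 450 kb (1.11 per 100 kb), all in intron 2 and within a stretch from 53.6 to 127 kb past the start. Its strongest shared interval was chr16:10220341-10220877, with a total signal of 2306 and both an AP-1 and a SOX core match. GRIN3A, whose product lowers the calcium permeability of the receptor, had 4 SOX2-only and 1 shared interval in 189 kb (2.64 per 100 kb). Its strongest SOX2-only interval, chr9:104324839-104325694, lay in the downstream flank with 7017, and its shared interval was chr9:104345023-104345373 in intron 6, with 3812.

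GRIN1, GRIN2B, GRIN2C, GRIN2D and GRIN3B held no interval of either list. GRIN2B has a longer window than GRIN2A, 564 kb, and the upper 95% limit for a count of 0 there is 0.654 per 100 kb. For GRIN1, GRIN2C, GRIN2D and GRIN3B, with windows of 29.3 to 71.3 kb, the same limit is 5.18 to 12.6 per 100 kb. A density near that of all genes could not be told from 0 in windows so short.

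GRID1, the only delta gene of the set, was empty over 787 kb, with the nearest interval 4.65 kb outside its window. Of the 7 metabotropic genes, GRM5 alone held intervals: 6 SOX2-only and 3 shared in 581 kb (1.55 per 100 kb). GRM5 encodes a receptor that couples to phospholipase C and calcium release. Its 9 intervals were all intronic. The 3 shared intervals lay together in intron 8, the strongest being chr11:88288196-88288863 with a total signal of 4834. The strongest SOX2-only interval was chr11:88613296-88614058 in intron 2, with 2822. GRM2, GRM3, GRM4, GRM6, GRM7 and GRM8, of the receptor groups known for lowering cyclic AMP, were empty. GRM7 (992 kb) and GRM8 (834 kb) were the longest empty windows, with upper 95% limits of 0.372 and 0.442 intervals per 100 kb. Over the class the density was 0.313 per 100 kb (0.143 to 0.594).

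Among the 12 GABA-A receptor genes, GABRB1, GABRR1 and GABRR2 held intervals, 16 in all (0.704 per 100 kb, 0.403 to 1.14). GABRB1, a beta subunit, had 9 SOX2-only and 3 shared intervals in 453 kb (2.65 per 100 kb). Intron 4 held 10 of the 12. The strongest, chr4:47282820-47284121, was SOX2-only with a total signal of 7304, at percentile 98.2, and the strongest shared interval was chr4:47192894-47193212 with 2631. Its partner beta gene GABRB2 was empty over 281 kb. GABRR2 and GABRR1, neighbours on chromosome 6 that encode rho subunits of retinal GABA receptors, held 3 and 1 interval. Those of GABRR2 included a shared interval, chr6:90026963-90027398, with 3394, and a SOX2-only interval, chr6:90028805-90029770, with 3914, which lay 2.16 and 4.27 kb upstream of the canonical start and were the closest to a start in the set. The interval of GABRR1, chr6:89879273-89879567, lay in its downstream flank with a total signal of 1346. Without the flanks GABRR1 has 0 intervals and GABRR2 has 1.

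The alpha genes GABRA2, GABRA4, GABRA5 and GABRA6, the gamma genes GABRG1 and GABRG3, the delta gene GABRD and the pi gene GABRP held no interval. The 4 alpha windows came to 624 kb, with an upper 95% limit of 0.591 per 100 kb, and the 2 gamma windows to 699 kb, with a limit of 0.528. GABRA4 and GABRB1 stand head to head on chromosome 4 with overlapping windows, and all 12 intervals of the pair lay on the GABRB1 side.

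Many of the empty genes lay in wide stretches without any listed interval. Of the 35 genes, 15 (42.9%) lay inside a stretch of 1000 kb or more without an interval of either list, against 7.34% of all protein-coding genes. A stretch exists only for a gene without an interval, and it includes the window of that gene. The 2 shares were not matched for window length, with medians of 203 kb for the receptor genes and 47.3 kb over all. Genes that are neighbours share a stretch and are not independent: GABRA2, GABRA4 and GABRG1 lie in the same stretch of 2426 kb on chromosome 4, GABRA6 and GABRB2 in a stretch of 2852 kb on chromosome 5, and GABRA5 and GABRG3 in a stretch of 2034 kb on chromosome 15. GRM7 lay in a stretch of 2989 kb, with the nearest interval 486 kb from its window, and GRM8 in a stretch of 2228 kb. The stretch at GABRD, 4190 kb, held 4.77% undetermined bases and that at GRIN3B 2.06%, and the others were at or near 0%. Other empty genes had intervals close by, as at GRM2, whose nearest interval lay 0.01 kb outside the window. GRIK4 had 4 SOX2 intervals and GRIN2D, GRID1, GRM2, GRM3, GRM4, GRM6 and GRM8 had 1 each once the flank was widened to 50 kb. With that flank 19 receptor genes were occupied, and 69.7% of all protein-coding genes.

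**Figure D5:**
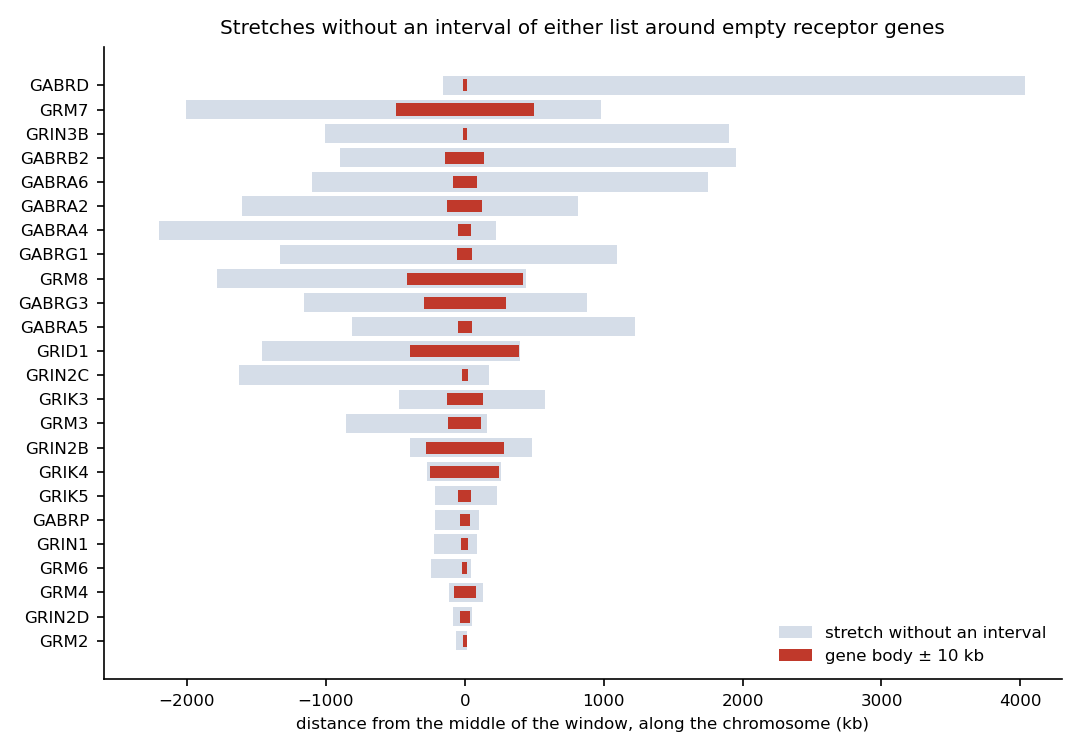
Stretch of chromosome without an interval of either list (pale bars) around each of the 24 receptor genes that hold none, with the gene body ± 10 kb in red, by distance from the middle of that window (kb). The stretches run from 77.6 kb at GRM2 to 4190 kb at GABRD.

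Base composition moved with occupancy, and its part in the result was not tested. The 11 occupied genes had windows of 34.7% to 44.4% GC (median 38.1%), and the 24 empty genes 33.3% to 64.5% (median 45%). All 12 receptor genes above 45% GC were empty. Over all protein-coding genes, 24.3% of those above 45% GC and 72.8% of those under 40% GC had a SOX2 interval. Among genes under 40% GC with windows of 200 kb or more, where 85.9% of all protein-coding genes were occupied, 6 of 11 receptor genes were. The empty ones of these were GRM3, GRM7, GRM8, GABRA2 and GABRB2. SOX core matches had a median of 172 per 100 kb of window in the occupied and 151 in the empty receptor genes. Among those of 200 kb or more the medians were 174 in the 8 occupied and 173 in the 10 empty genes.

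The intervals at the receptor genes were mostly intronic, which windows made of gene bodies and flanks favour by construction. No share over all intervals stands beside the counts that follow, so no trait of the receptor genes is shown. The centre was in an intron for 141 of 152, in an untranslated region for 2, in another non-coding exon for 1, in the upstream flank for 3 and in the downstream flank for 5. The shared class made up 29.8% (23.1 to 37.5) of the SOX2 intervals, beside 24.7% of the list. It made up 32.2% in GRIK2 and 26.6% in the other 10 genes. The down-sampled SOX2 list held 70.2% (62.5 to 76.9) of them, beside 64.3% of the list, and 10 of the 11 genes kept at least 1, GABRR2 keeping 0. The median width was 543 bp and the median total signal 2435, against 513 bp and 2375. The 95% intervals of both shares hold the value of the list. Of the shared intervals, 11 of 45 (24.4%) at the receptor genes and 16.8% over the list lay in the highest 10% by total signal. Most of the 11 lay in GRIK2, among them the pairs of equal signal values. No 95% interval was computed for this share.

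Other genes of glutamate and GABA signalling, a list of 41 with the same window, held SOX2 intervals at 21 genes (51.2%). The share of all protein-coding genes was 47.8%. SOX2-DBD intervals lay at 14 (34.1%, beside 24.0%). These shares were not matched for length, with median windows of 93.0 kb for the list and 47.3 kb over all. The pooled densities were 2.03 (1.73 to 2.36) and 0.444 (0.313 to 0.612) per 100 kb, both lower than the 2.59 and 0.637 of all protein-coding genes. The scaffold genes DLG1, GPHN and HOMER1 had 20, 43 and 9, or 7.23, 6.19 and 5.57 per 100 kb. Scaffold genes differed widely, since DLG4, SHANK1, HOMER3, GRIP2 and PICK1 had 0 and SHANK2 had 2 (0.299 per 100 kb). CNIH3, an AMPA receptor auxiliary subunit, had 14 SOX2 intervals and 1 SOX2-DBD-only interval. The GABA-synthesising enzymes GAD1 and GAD2 and the vesicular GABA transporter SLC32A1 had 0, and so did 5 of the 6 CACNG genes, CACNG2 having 1. DLG2, with the longest window of the list at 2193 kb, had 13 (0.593 per 100 kb).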

How the data were processed

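The 3 lists attached to replicate 1 were analysed, for SOX2, for SOX2-DBD and for SOX2 after down-sampling. Total and maximum signal per interval are the authors' deposited values, and their normalization is not given in the sources used here. The seventh column of the SOX2 list is a deposited score, filled only in rows that both lists hold, and its meaning is not given. The submitters' processing notes name hg19, Bowtie2 2.3.4.1, SAMtools, bedtools 2.27.1, SEACR 1.3 and deepTools 3.5.0 without a role, and the column order is that of SEACR. The threshold, the filters and the pooling of replicates are not given in the sources used here. Rows shared by both lists carry 1 set of signal values, and which group these were measured in is not given. Shared rows can be parts of a longer peak.

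Exact duplicate rows were counted once, which left 57907 SOX2 and 15220 SOX2-DBD intervals. Intervals were classed by identical position. Counts, densities and motif shares were computed with python 3.11.15, pandas 2.3.3, numpy 2.4.6, scipy 1.17.1 and pyfaidx 0.9.0.4 on the GRCh37 sequence, indexed with samtools 1.23.1, and plotted with matplotlib 3.10.9. Overlapping windows were merged for pooled densities. The code was tested on simulated data. No p-value was computed. For each occupied gene the strongest interval in the SOX2-DBD list and the strongest SOX2-only interval are given with coordinates. Members and gene lists were chosen with earlier results of these data known. Alternatives covered the window, the gene model, overlap, duplicates, merging, signal, the list and the motif. A few items are not reported here.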

Additional observations from a re-analysis of the deposited data

Results flagged for a closer look

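The deposited score in the seventh column of the SOX2 list was used in no comparison. It was 1 or more in 18 of the 45 shared intervals at the receptor genes (Wilson 95% confidence interval of the share 27.0% to 54.5%), beside 34.5% of all 14300 shared intervals, and it reached 2 at these genes. Its meaning is not given, and it drew attention because it holds values above 0 in data that the comparisons leave out.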

How the results depend on the processing

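A count of genes was taken as moved when it changed by over 1.5 times, and a density or share when it left the 95% interval of the reported value. By these limits 49 of 58 recomputed values stayed and 9 moved. Widening the flank to 50 kb raised the receptor genes with a SOX2 interval from 11 to 19. Keeping the upper 50% of each list by total signal lowered those with a SOX2-DBD interval from 10 to 6, the SOX2 density to 0.740 and the SOX2-DBD density to 0.225 per 100 kb. The down-sampled list gave a SOX2 density of 1.03. Without GRIK2 the densities were 0.671 and 0.178, an alternative chosen after seeing the data, as were counting equal signal values once and the canonical transcript model. The SOX core share fell to 33.8% in a 100-bp window and was 1.32% for the 8-letter words. These alternatives search more or fewer bases, intervals or words by construction. Merging intervals gave no motif value. No paired analysis was possible because only 1 list per group was analysed, and for that reason no replicate could be left out. Unknown depth limits every count of 0.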
